A study of Mus musculus with 24 samples.

Results

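Inflammasomes are protein platforms of the innate immune system, and the data below describe 10 of their genes in bone marrow cells of mice with and without a Srcap mutation. The set, 10 of 55414 genes in the files, holds the sensors Nlrp1a, Nlrp1b, Nlrp3 and Nlrc4, the adaptor Pycard, the proteases Casp1 and Casp4, the pore-forming protein Gsdmd and the cytokines Il1b and Il18. The genes were chosen by name. Nlrp1a entered because its counts were lower in Srcap mutant B cells than in WT B cells, so its values in that contrast are given as a description without a test.

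A sensor that detects a microbial product, a protease or a disturbed cell recruits the adaptor, and the adaptor gathers and activates Casp1. Casp1 cleaves the precursors of interleukin-1 beta and interleukin-18 and, like Casp4, cleaves Gsdmd, whose fragment opens pores in the plasma membrane and can end in lytic cell death. Neutrophils and monocytes of the marrow are well-known sources of Il1b and Nlrp3, and mouse Nlrp1a is known for inflammasome activity in hematopoietic progenitors.

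RNA was sequenced from 24 bone marrow libraries of C57BL6/J mice, 2 in each of 12 groups, and every condition has a WT and a Srcap mutant group. Hematopoietic stem and progenitor cells (HSPCs) came from untreated mice, from mice 12 hours after intraperitoneal doxorubicin, from mice transplanted 2 weeks earlier, and from competitive transplants at 20 weeks, for which the design text names CD45.2+ donor test cells. B cells and cells labelled T cells were collected at the 2-week time. The Srcap protein is a chromatin remodeler that places the histone variant H2A.Z. The file headers mark mutant samples as het for untreated, doxorubicin and 20-week HSPCs and as Mut for the 2-week libraries, and neither the allele nor the mice's ages are stated in the sources used here. The labels call the samples independent without naming animals, so p-values measure the spread between these samples, which may be technical.

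Libraries held 26369992 to 78432483 counts. A gene is called here where edgeR's adjusted p over all genes is under 0.05. Srcap was not called in any genotype comparison, with log2 changes from -0.33 at 20 weeks to 0.54 in untreated HSPCs, so its transcript level does not check the genotype labels. The B cell list of 11 markers took 0.813% to 1.07% of counts in B cell libraries. In the T-labelled libraries Cd3e, which every T cell needs for its receptor, reached 0.0883 to 1.56 CPM (a gene's share of all counts, scaled to a common library size), while 12 neutrophil genes took 14.03% to 16.08% of counts, so these data go against that label and the libraries are called T-labelled. The same neutrophil list took 0.370% to 1.32% of counts in B cell libraries, 2.44% in WT untreated HSPC replicate 1, and 0.01002% to 0.3689% in the other 15 HSPC libraries. Xist, transcribed from the inactive X chromosome, stood at 320.2 CPM or more in all 2-week libraries and at most at 0.484 CPM in the others. In these bulk samples fewer cells of a type and less RNA per cell cannot be told apart.

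The genes lie on 6 chromosomes (GRCm39). On chromosome 11 the paralogs Nlrp1a (ENSMUSG00000069830, 70983062 to 71035530, minus strand) and Nlrp1b (ENSMUSG00000070390, 71043928 to 71121559, minus strand) are 8398 bases apart, and the pseudogene Nlrp1c-ps follows 11697 bases further. Nlrp3 (ENSMUSG00000032691, 59432394 to 59457782, plus strand) is on the same chromosome. On chromosome 9, Casp1 (ENSMUSG00000025888, 5298508 to 5307290) and Casp4 (ENSMUSG00000033538, 5308828 to 5336783) are 1538 bases apart, and Il18 (ENSMUSG00000039217) covers 50466127 to 50493140, all on the plus strand. Nlrc4 (ENSMUSG00000039193) is on chromosome 17 at 74732433 to 74766137 on the minus strand. Pycard (ENSMUSG00000030793) is on chromosome 7 at 127588880 to 127593039 on the minus strand, 428 kb from Srcap. Gsdmd (ENSMUSG00000022575) is on chromosome 15 at 75734176 to 75739257 on the plus strand and Il1b (ENSMUSG00000027398) on chromosome 2 at 129206490 to 129213059 on the minus strand. Antisense genes overlap Il1b, Il18 and Pycard, and the headers state strand-specific counting. Of 4256 windows of 50 bases in Nlrp1a transcripts 76 also occur in Nlrp1b, or 1.79%, so a small part of the reads could be split between these paralogs.

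The upstream sequences of the Nlrp1 pair are shown because their counts moved together, and that of Nlrp3 because its counts did not follow them. Each is the 250 bases before the first listed transcription start, from RefSeq, build GRCm38.p6, 5′ to 3′ on the gene's strand. The windows are chr11:71144705-71144954 (minus) for Nlrp1a, chr11:71230734-71230983 (minus) for Nlrp1b and chr11:59542436-59542685 (plus) for Nlrp3. Capitals mark GAGGAAG on either strand, a sequence of the kind bound by PU.1, a myeloid and B cell transcription factor.
Nlrp1a: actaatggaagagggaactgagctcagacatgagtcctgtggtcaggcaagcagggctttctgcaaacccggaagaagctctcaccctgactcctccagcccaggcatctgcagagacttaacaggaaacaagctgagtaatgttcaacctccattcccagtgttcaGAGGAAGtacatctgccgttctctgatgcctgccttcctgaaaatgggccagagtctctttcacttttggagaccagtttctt
Nlrp1b: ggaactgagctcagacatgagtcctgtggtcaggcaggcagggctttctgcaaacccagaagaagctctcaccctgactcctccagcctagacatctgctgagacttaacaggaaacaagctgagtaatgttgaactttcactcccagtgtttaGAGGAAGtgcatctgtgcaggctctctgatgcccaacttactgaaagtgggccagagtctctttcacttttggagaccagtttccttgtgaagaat
Nlrp3: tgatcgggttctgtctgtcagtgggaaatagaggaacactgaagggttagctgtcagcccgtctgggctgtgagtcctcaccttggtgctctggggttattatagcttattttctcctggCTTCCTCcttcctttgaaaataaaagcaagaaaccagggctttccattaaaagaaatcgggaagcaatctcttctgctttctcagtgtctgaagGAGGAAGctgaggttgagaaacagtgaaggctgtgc
In a local alignment of the Nlrp1a and Nlrp1b sequences 216 of 238 columns were identical, or 90.8%, with 19 mismatches and 3 gap columns. GAGGAAG lies at -83 to -77 in Nlrp1a and at -96 to -90 in Nlrp1b, counted from the start site, and in Nlrp3 at -130 to -124 on the other strand and at -36 to -30. Both Nlrp1 windows also hold TTGCNNAA, a C/EBP-type sequence, on the other strand, at -192 to -185 and at -205 to -198, as do those of Nlrc4 (-36 to -29) and Pycard (-142 to -135). Among 32851 promoter windows of this length 10.6% hold GAGGAAG and 9.56% hold TTGCNNAA on either strand. Of the 10 genes 9 have such an entry, and of these Pycard also holds GAGGAAG. Sequences of the NF-kB and EBF1 kind and a core promoter sequence were also searched. The NF-kB kind lay in Casp1, Casp4 and the second Nlrp3 window, and the EBF1 kind in Il1b and the second Nlrp3 window. Of the 32851 promoter windows 45.8% hold the NF-kB kind and 11.8% the EBF1 kind. Whether the members differ from these shares was not tested. The core promoter sequence, TATAAA, lay in Il1b at -31 to -26 on the gene's strand. In Il18 its letters lay on the other strand at -175 to -170, and 12.4% of all windows hold them on either strand. The windows of the second listed Nlrp1b and Nlrp3 starts hold neither GAGGAAG nor TTGCNNAA. That of Nlrp1b aligned to the Nlrp1a window over only 12 columns. A match describes letters in a window and shows no binding.

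**Figure D1:**
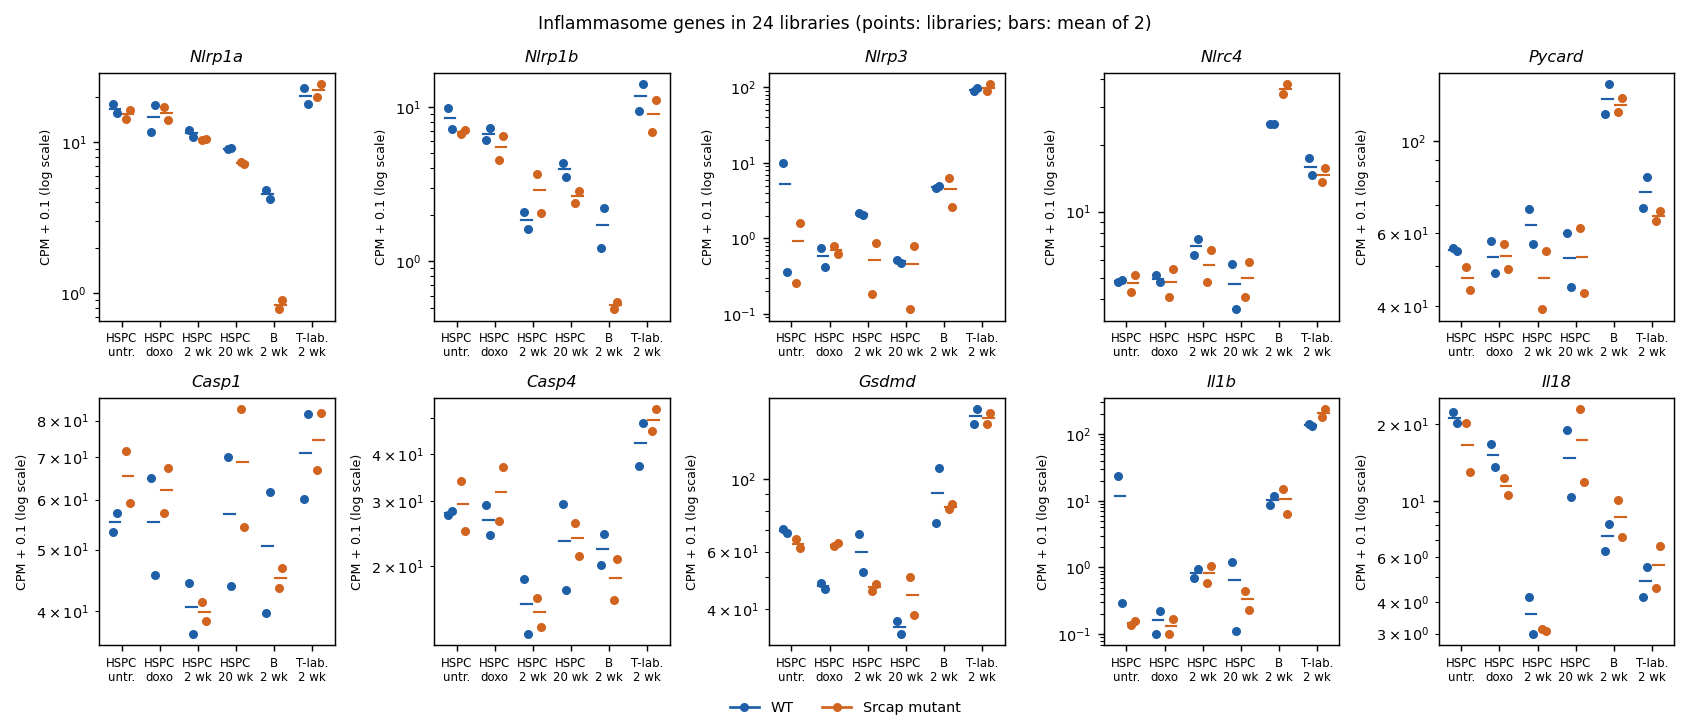
CPM plus 0.1, on a log axis, of the 10 inflammasome genes in 24 libraries, with WT in blue and Srcap mutant in orange (points are libraries, bars means of 2). Nlrp1a in mutant B cells stands at 0.681 and 0.797 CPM, below every other library, and Nlrp3 and Il1b are highest in the T-labelled libraries.

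The genes differed in abundance within each cell label. As TPM, a transcript scale that allows for gene length, the HSPC means ranked Gsdmd (62.3), Casp1 (46.6), Pycard (37.3), Il18 (31.4) and Casp4 (17.4) above the sensors, of which Nlrp1a led with 8.33. The other HSPC means were 2.90 TPM for Nlrc4, 2.56 for Il1b, 2.06 for Nlrp1b and 0.890 for Nlrp3. Without WT untreated replicate 1, the library rich in neutrophil transcripts, Il1b was at 0.475 TPM, the lowest of the 10, and Nlrp3 at 0.497 TPM. In B cells Gsdmd (114.1 TPM) and Pycard (102.6 TPM) ranked highest, Nlrc4 was the leading sensor of the set at 20.0 TPM, and Nlrp1b was lowest at 0.498 TPM. In the T-labelled libraries Il1b led with 204.5 TPM, followed by Gsdmd (147.3) and Nlrp3 (53.7). Among the sensors of the set, the leading one thus differed between the labels, Nlrp1a in HSPCs, Nlrc4 in B cells and Nlrp3 in the T-labelled libraries. Sensors outside the set were not ranked here.

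Both sensors of the Nlrp1 pair had lower counts in mutant than in WT B cells, the contrast that brought Nlrp1a into the set. Nlrp1a was at 4.72 and 4.13 CPM in WT B cells, from 236 and 210 counts, and at 0.681 and 0.797 CPM in mutant B cells, from 35 and 39 counts. Both mutant libraries lay below both WT libraries, and the fitted log2 change was -2.58, a 5.98-fold lower level. Nlrp1a was chosen for this low level, so these values describe it and are no support for it. Nlrp1b, a sensor activated when pathogen proteases or loss of Dpp9 function release its carboxy-terminal fragment, was at 1.12 and 2.12 CPM in WT against 0.389 and 0.449 CPM in mutant B cells. These groups did not overlap either, but the counts behind them are small, 56 and 108 in WT against 20 and 22 in mutants. Its log2 change was -1.95 ± 0.43 (SE), with adjusted p = 0.0669 in edgeR, and so it was not called. DESeq2 called it with adjusted p = 0.00467, and so did edgeR without WT replicate 1 (-2.32, adjusted p = 0.0158), and the adjusted p over all alternatives ran from 0.000132 to 0.437. Of single genes with a mean of at least 1 CPM, 43.9% did not overlap between the genotypes in B cells, in either direction. Of 10 marker lists, beside that share, 5 were lower in mutant B cells without overlap. In summed CPM, WT against mutant, they were HSPC markers (59.4 and 61.8 against 37.4 and 37.0), monocyte and macrophage markers (354.1 and 387.4 against 257.3 and 170.2), dendritic cell markers (216.7 and 227.0 against 122.0 and 160.5), NK cell markers (138.4 and 114.0 against 94.9 and 102.9) and megakaryocyte markers (20.3 and 16.7 against 13.7 and 7.01). Their part in the Nlrp1 values was not tested.

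The neighbours of the pair were read in the same libraries, and the pseudogene was singled out after its values were seen. Nlrp1c-ps had 19 and 30 counts in WT B cells (0.380 and 0.590 CPM) and none in either mutant library. With a floor of 3 counts per library it was at least 8.10-fold lower, a bound that covers counting error only. Mis12, a kinetochore gene that ends 64865 bases before Nlrp1a, had a mean of 66.1 ± 0.156 CPM in WT and 62.8 ± 3.94 CPM in mutant B cells (SD, n = 2), giving a log2 change of -0.08 ± 0.12 (adjusted p = 0.896 in edgeR). The low values of the cluster in mutant B cells had no match in the mutant T-labelled libraries, where Nlrp1a was at 20.0 and 24.1 CPM, Nlrp1b at 6.75 and 11.03 CPM and Nlrp1c-ps at 2.00 and 1.92 CPM. WT T-labelled libraries held 22.9 and 17.7, 9.30 and 13.9, and 1.92 and 2.10 CPM of the same genes.

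**Figure D2:**
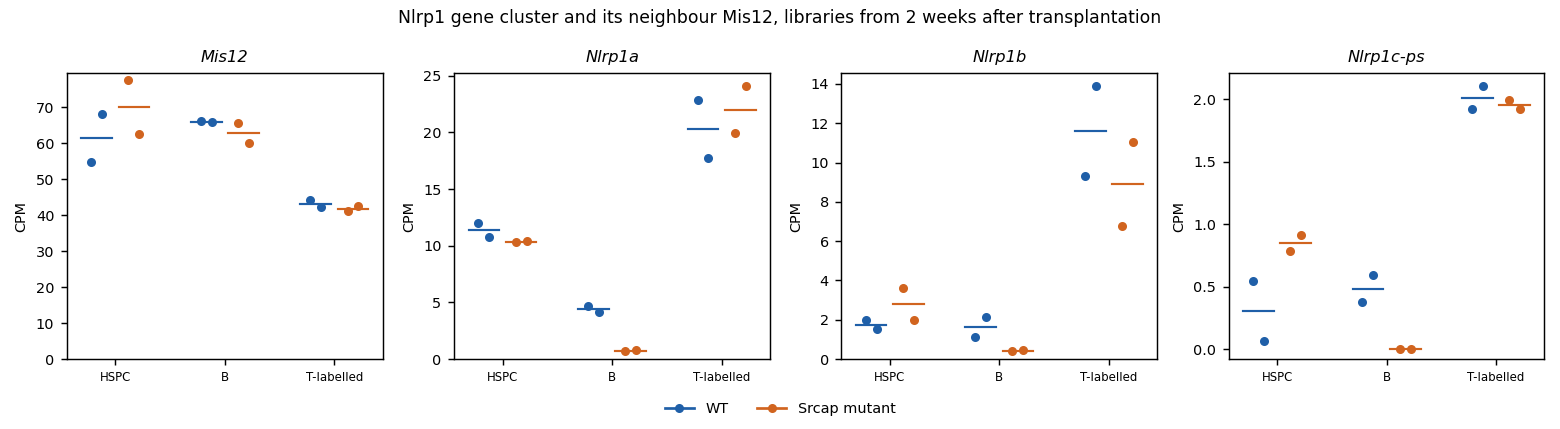
CPM, on linear axes, of Mis12, Nlrp1a, Nlrp1b and Nlrp1c-ps in the 12 libraries from 2 weeks after transplantation (points are libraries, bars means of 2). In B cells the mutant points lie below the WT points for the Nlrp1 genes, at 0 for Nlrp1c-ps, while Mis12 is at 60.0 to 66.2 CPM in all 4 libraries.

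Of the 9 other genes tested in B cells, edgeR called 0 between the genotypes, where 0.641% of all genes were called, 0.583% lower and 0.0572% higher. An unadjusted p under 0.05 was found for 2 of the 9, against 11% of all genes, and DESeq2 called 1, Nlrp1b. Nlrc4, the sensor that pairs with Naip proteins bound to flagellin or secretion system parts, was the second. It was at 24.9 and 25 CPM in WT against 34.1 and 37.8 CPM in mutant B cells, without overlap, with a fitted log2 value of 0.53 ± 0.17 (adjusted p = 0.249 in edgeR), so it was not called. Nlrp3 was at 4.50 and 4.91 CPM in WT against 6.16 and 2.53 CPM in mutants, so the mutant libraries bracketed the WT ones. Its log2 change of -0.12 became -0.88 with adjusted p = 0.0139 in edgeR without mutant replicate 1. The mutant libraries also bracketed WT for Il1b, at 14.9 and 6.13 CPM against 8.54 and 11.8 CPM. The neutrophil gene S100a8 was at 1414 and 2437 CPM in WT against 1523 and 613.8 CPM in mutant B cells, and its part in the Nlrp3 and Il1b values was not tested. Pycard, Casp1, Casp4, Gsdmd and Il18 overlapped between the genotypes, with log2 changes from -0.26 to 0.25. The median log2 change of the 9 genes was -0.12, against -0.01 over all genes.

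**Figure D3:**
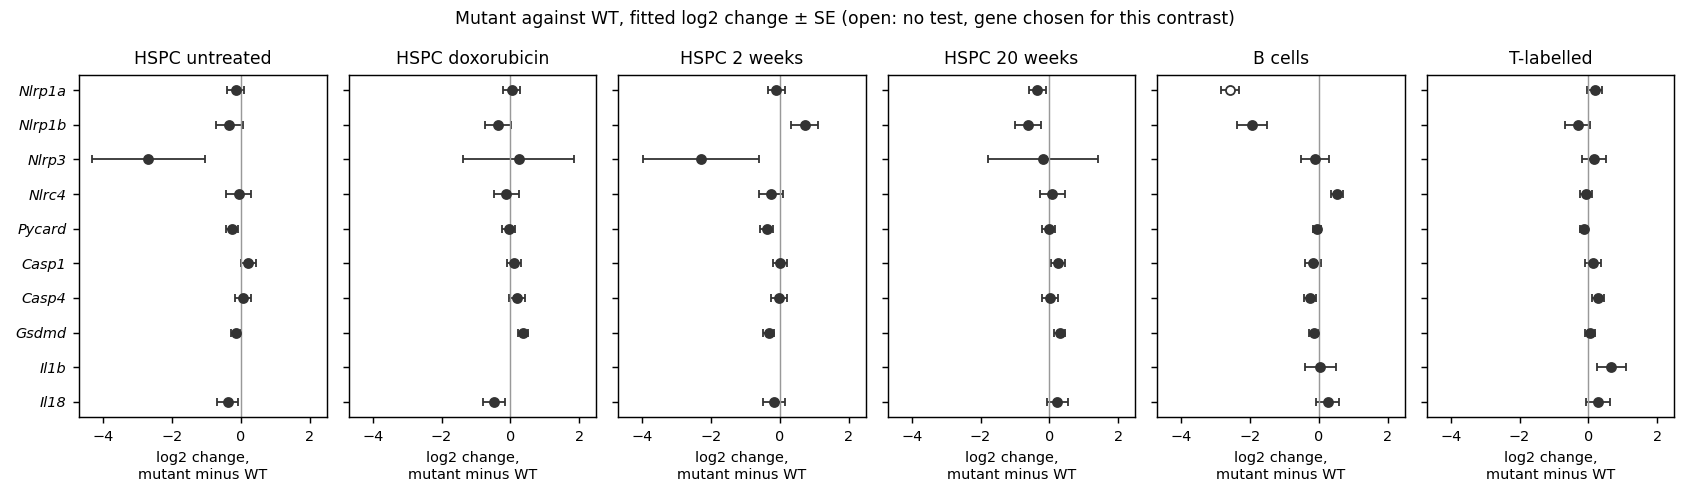
Fitted log2 change ± SE of each gene, Srcap mutant minus WT, in 6 cell and condition groups (2 libraries a genotype), with an open point for Nlrp1a in B cells, which has no test. Il1b is not drawn in HSPCs, where most libraries held under 1 CPM, and the changes farthest below 0 in B cells are Nlrp1a at -2.58 and Nlrp1b at -1.95.

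In HSPCs none of the 10 genes was called between mutant and WT by edgeR in any of the 4 conditions. The shares of all genes called were 0% in untreated HSPCs, 0.0154% after doxorubicin, 0.138% at 2 weeks and 0.00512% at 20 weeks, and 0.133% for the mean over the conditions. At an unadjusted p under 0.05 there was 1 gene in untreated HSPCs, 1 after doxorubicin, 2 at 2 weeks and 0 at 20 weeks and in the mean, and DESeq2 called 1 gene in untreated HSPCs and 0 in the others. The shares of all genes at that p were 4.82%, 9.79%, 8.76%, 3.8% and 9.88%.

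Nlrp1a in HSPCs either overlapped between the genotypes or differed by little. It was at 17.7 and 15.6 CPM in WT against 14.2 and 16.3 CPM in mutant untreated HSPCs, and at 11.6 and 17.5 against 16.9 and 14.03 CPM after doxorubicin, overlapping in both. At 2 weeks WT held 12.0 and 10.7 CPM and mutants 10.3 and 10.4 CPM. At 20 weeks WT held 8.95 and 9.03 CPM and mutants 7.29 and 7.12 CPM, a fitted log2 change of -0.36 ± 0.25 (adjusted p = 1 in edgeR). The mutant libraries were thus the lower ones without overlap at both transplantation times, and neither difference was called. Whether the genotype effect on Nlrp1a differed between B cells and HSPCs was not tested, since the gene was chosen for the first of them. Nlrp1b at 20 weeks was at 4.26 and 3.42 CPM in WT against 2.30 and 2.77 CPM in mutants, also without overlap, at -0.62 ± 0.39 with adjusted p = 1 in edgeR. At 2 weeks its sign was the opposite, with 1.97 and 1.53 CPM in WT against 3.596 and 1.97 CPM in mutants. The test of the difference between its genotype effects in B cells and 2-week HSPCs gave -2.61 ± 0.67 on the log2 scale with adjusted p = 0.43 in edgeR. Nlrp1c-ps had 25 counts in the WT libraries at 20 weeks and 0 in the mutant ones, at least 3.55-fold lower by the same floor, and 0.783 and 0.910 CPM in mutant against 0.544 and 0.0675 CPM in WT HSPCs at 2 weeks.

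Gsdmd, the pore-forming effector, had a mutant minus WT change whose sign varied with condition. After doxorubicin it was at 48.0 and 45.9 CPM in WT against 62.1 and 63.5 CPM in mutants, a log2 change of 0.36 ± 0.15 with adjusted p = 0.441 in edgeR. At 2 weeks it was at 67.8 and 52.0 CPM in WT against 45.4 and 47.7 CPM in mutants, a change of -0.33 ± 0.15 with adjusted p = 0.552 in edgeR. At 20 weeks WT held 36.7 and 33.4 CPM and mutants 50.1 and 38.2 CPM. In each of these conditions, and in untreated HSPCs, the genotypes did not overlap, yet no change was called. Among HSPCs only the 2-week mutants are marked Mut rather than het, and only the 2-week libraries carried Xist. Neither can be told apart from the 2-week condition in comparisons of genotype effects. The 2-week and doxorubicin effects differed by -0.69 ± 0.21, with adjusted p = 0.262 in edgeR, the smallest adjusted p among the members in 8 such contrasts between effects. None of the 8 called a member, and they called 0% of all genes, except for 0.0102% here, 0.0158% for B cells against 2-week HSPCs, 0.0105% for T-labelled libraries against 2-week HSPCs and 0.00526% for T-labelled libraries against B cells. Pycard at 2 weeks was at 68.7 and 56.4 CPM in WT against 39.3 and 54.3 CPM in mutants, with adjusted p = 0.558 in edgeR.

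Il1b, the cytokine, was near 0 in all but 1 HSPC library. WT untreated HSPCs held 23.5 and 0.196 CPM and mutants 0.0381 and 0.0551 CPM, and Nlrp3 there was at 10.02 and 0.253 CPM in WT against 0.152 and 1.49 CPM in mutants. The high value of each belongs to WT replicate 1, the library with 4309 CPM of S100a8. Its monocyte and macrophage markers summed to 529.8 CPM, against 133.1 to 166.5 CPM in the other untreated libraries. The part of these markers in the values was not tested. In untreated HSPCs Il1b had adjusted p = 0.826 in edgeR, and DESeq2 called it with adjusted p = 0.0194. At 2 weeks Nlrp3 was at 2.09 and 1.91 CPM in WT and lower, at 0.0804 and 0.758 CPM, in mutants, at -2.30 ± 1.68 on the log2 scale (adjusted p = 0.726 in edgeR). In the other 15 HSPC libraries Il1b reached at most 1.09 CPM and Nlrp3 at most 2.09 CPM.

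Across genotypes, the number of genes without overlap between mutant and WT libraries was 5 of 10 in untreated HSPCs, 2 after doxorubicin, 4 at 2 weeks, 3 at 20 weeks, 3 in B cells and 2 in T-labelled libraries. The corresponding shares of 13478 genes with a mean of at least 1 CPM were 42.2%, 51.0%, 32.9%, 25%, 43.9% and 38.7%. The members' shares lay on both sides of these. The 3 in B cells are Nlrp1b, Nlrc4 and Nlrp1a, and Nlrp1a was chosen for that contrast, so its part in the count was set beforehand. In the T-labelled libraries edgeR called 0 of the 10 genes and 0.0114% of all genes, with 0 of 10 and 5.72% at an unadjusted p under 0.05, and DESeq2 called 0 of the 10. Il1b there was at 142.1 and 133.8 CPM in WT against 181.9 and 235.3 CPM in mutants, not overlapping, at 0.66 ± 0.42 on the log2 scale (adjusted p = 0.861 in edgeR).

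Doxorubicin, a DNA-damaging drug, was compared with no treatment over both genotypes, and edgeR called 0 of the 10 genes after 12 hours, as against 0.0154% of all genes, with 0 in DESeq2. Gsdmd was at 61.3 to 70.3 CPM in the 4 untreated libraries and 45.9 to 63.5 CPM in the 4 treated ones, at -0.27 ± 0.11 on the log2 scale (adjusted p = 0.819 in edgeR). Il18 was at 12.9 to 22.2 CPM untreated and 10.5 to 16.7 CPM treated, at -0.49 ± 0.22 with adjusted p = 0.832 in edgeR. These were the 2 members with an unadjusted p under 0.05, which 5.96% of all genes had. Nlrp1a, at 14.2 to 17.7 and 11.6 to 17.5 CPM, and Casp1, at 53.2 to 71.6 and 45.5 to 67.1 CPM, overlapped. The response of mutants minus that of WT called 0 of the 10 and 0% of all genes in edgeR, 0 of the 10 in DESeq2, and 1 of the 10 had an unadjusted p under 0.05, Gsdmd at 0.51 ± 0.21.

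At 2 weeks after transplantation, 5 of the 10 genes were lower in HSPCs than in untreated HSPCs and none was higher, where 24.9% of all genes were called lower and 21.2% higher. Il18, a cytokine that many cells hold as a ready precursor, fell most among the called members. Its 4 untreated libraries held 12.9 to 22.2 CPM and the 2-week ones 2.88 to 4.09 CPM, a log2 change of -2.45 ± 0.23 with adjusted p = 1.35e-07 in edgeR. No 2-week library reached the lowest untreated one. Nlrp1b fell from 6.60 to 9.71 CPM to 1.53 to 3.596 CPM, at -1.68 ± 0.28 with adjusted p = 7.18e-05, also without overlap. The proteases fell together: Casp4 was at 24.8 to 33.8 and then 13.04 to 18.3 CPM (-0.81 ± 0.17, adjusted p = 0.000635), and Casp1 at 53.2 to 71.6 and then 36.7 to 44.3 CPM (-0.50 ± 0.15, adjusted p = 0.00932). Nlrp1a went from 14.2 to 17.7 CPM to 10.3 to 12.0 CPM, at -0.47 ± 0.17 with adjusted p = 0.0359 in edgeR. That call was lost in 7 of the 8 fits that left out 1 library (adjusted p from 0.0505 to 0.125), all except the one without mutant 2-week replicate 1, and without the count filter (-0.51, adjusted p = 0.0561). Pycard (39.3 to 68.7 CPM at 2 weeks), Nlrc4, Nlrp3, Gsdmd and Il1b were not called. For Gsdmd, at 61.3 to 70.3 and then 45.4 to 67.8 CPM, edgeR gave -0.24 ± 0.11 with adjusted p = 0.0695, and it was called by DESeq2 (0.0346), with total counts (0.0277), without immunoglobulin genes (0.0448) and without WT 2-week replicate 1 (0.0377). The median log2 change of the 10 genes was -0.48, against -0.14 over all genes.

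At 20 weeks after competitive transplantation 4 of the 10 genes differed from untreated HSPCs, 3 lower and 1 higher, where 10.6% of all genes were lower and 13.1% higher. Nlrp1a was at 7.12 to 9.03 CPM against 14.2 to 17.7 CPM untreated, a log2 change of -0.62 ± 0.17 with adjusted p = 0.0142 in edgeR. Nlrp1b was at 2.30 to 4.26 CPM, at -0.92 ± 0.27 with adjusted p = 0.0204. Gsdmd was at 33.4 to 50.1 CPM against 61.3 to 70.3 CPM, at -0.40 ± 0.11 with adjusted p = 0.0106. All 3 were without overlap. Il18, at 10.3 to 22.8 CPM, overlapped the untreated libraries, at 0.10 on the log2 scale (adjusted p = 0.782 in edgeR). Pycard was called higher at 0.40 ± 0.13 with adjusted p = 0.0297, although its CPM overlapped (43.1 to 61.7 against 43.8 to 55.1). This call rests on TMM, edgeR's scaling that allows for a few abundant genes taking a large share of counts, since with total counts the change was 0.05 with adjusted p = 0.839, and that scaling moved the median of all genes by -0.35. Leaving out 1 library left 1 to 6 of the genes called. Without WT untreated replicate 1 the values were -0.58 (adjusted p = 0.0591) for Nlrp1a, -0.79 (0.0954) for Nlrp1b and 0.40 (0.074) for Pycard. Without mutant untreated replicate 2 they were -0.58 (0.0688), -0.90 (0.0696) and 0.35 (0.129), and without WT 20-week replicate 1 they were -0.57 (0.0562), -0.95 (0.0502) and 0.34 (0.113). Leaving out mutant untreated replicate 1, WT 20-week replicate 2 or mutant 20-week replicate 1 ended the Nlrp1b call, at -0.94 (0.0548), -0.93 (0.0641) and -0.83 (0.0838), and the Pycard call, at 0.44 (0.0514), 0.41 (0.0572) and 0.29 (0.146). Without WT untreated replicate 2 only the Pycard call was lost, at 0.39 (0.0805). Casp1 was added at 0.46 (0.0442) without WT 20-week replicate 2 and at 0.51 (0.0144) without mutant 20-week replicate 2, where Nlrp3 was added at -4.33 (0.0458). Without the count filter Nlrp3 (-2.08, adjusted p = 0.0072) and Casp1 (0.40, adjusted p = 0.0258) were added.

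Both transplantation comparisons share the untreated libraries. Time and transplantation cannot be told apart from sex at 2 weeks, since those mice carried Xist and the untreated ones did not. The header mark of the mutants, Mut at 2 weeks and het in untreated HSPCs, cannot be told apart from them either. Nor can time and transplantation be told apart, at either time, from the header directory, which goes with the condition and whose meaning is not stated. Marker lists moved too: 10 HSPC markers summed to 1203 to 1663 CPM at 2 weeks, 2536 to 2892 CPM at 20 weeks and 2979 to 3752 CPM untreated, and 6 plasma cell markers took 1.11% to 1.69% of counts at 20 weeks and 0.0575% to 0.118% at 2 weeks against 0.350% to 0.691% untreated. Erythroid markers summed to 1895 to 2654 CPM at 2 weeks against 354.8 to 636.4 CPM untreated, and megakaryocyte markers to 135.5 to 286.1 CPM at 2 weeks and 94.2 to 130.5 CPM at 20 weeks against 29.5 to 39.7 CPM untreated. Their part in these results was not tested.

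Cell labels were compared among the libraries from 2 weeks, which share the sex and header directory. Contrasts with B cells hold the values for which Nlrp1a was chosen, so it is described there without a test. In B cells edgeR called all 9 other genes against HSPCs, 8 higher and 1 lower, where 28.3% of all genes were higher and 25.5% lower. Nlrc4 was at 24.9 to 37.8 CPM in B cells and 4.66 to 7.43 CPM in HSPCs, a log2 change of 2.40 ± 0.16 with adjusted p = 1.65e-08. Pycard, the adaptor, was at 116.0 to 136.5 against 39.3 to 68.7 CPM, at 1.33 ± 0.11 with adjusted p = 1.74e-07. Gsdmd rose by 0.84 ± 0.12 and Il18, at 6.26 to 9.99 CPM, by 1.40 ± 0.28, both without overlap. Casp4 overlapped, at 16.2 to 24.3 against 13.04 to 18.3 CPM (0.53 ± 0.15, adjusted p = 0.00846). Casp1 was weakest, at 39.7 to 61.7 against 36.7 to 44.3 CPM, at 0.38 ± 0.14 with adjusted p = 0.0413, and was not called with RLE size factors (adjusted p = 0.0656), total counts (0.168), the compared groups alone (0.0654) or DESeq2 (0.0776). Its call also ended without WT HSPC replicate 2 (0.32, adjusted p = 0.132), mutant HSPC replicate 1 (0.42, 0.0623), mutant HSPC replicate 2 (0.34, 0.129), WT B replicate 2 (0.21, 0.232), mutant B replicate 1 (0.41, 0.057) and mutant B replicate 2 (0.34, 0.109).

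Averaged over genotypes, the Nlrp1 pair was lower in B cells, though for Nlrp1b the WT means were close. Nlrp1a was at 0.681 to 4.72 CPM in B cells and 10.3 to 12.0 CPM in HSPCs, and the WT B libraries, at 4.72 and 4.13 CPM, also lay below all HSPC libraries. Nlrp1b fell by 1.30 ± 0.34, with adjusted p = 0.00467 in edgeR, and the groups overlapped, since WT B replicate 2 held 2.12 CPM. Its WT means were 1.62 CPM in B cells and 1.75 CPM in HSPCs, and its mutant means 0.419 and 2.78 CPM. The averaged change of Nlrp1b thus rests mainly on the mutant libraries. Nlrp3 and Il1b rose, from 0.0804 to 2.09 CPM and 0.482 to 0.948 CPM in HSPCs to 2.53 to 6.16 CPM and 6.13 to 14.9 CPM in B cells, by 2.59 ± 0.44 and 3.998 ± 0.36 on the log2 scale. S100a8 was at 162.3 to 543.1 CPM in these HSPC libraries and 613.8 to 2437 CPM in B cells, and its part in these changes was not tested.

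In the T-labelled libraries all 10 genes were higher than in HSPCs, where 32.6% of all genes were. Il1b, at 133.8 to 235.3 CPM, was 430.2-fold higher (8.75 ± 0.39 on the log2 scale, adjusted p = 9.09e-08), and Nlrp3, at 88.6 to 109.5 CPM, was 209.6-fold higher (7.71 ± 0.46, adjusted p = 9.81e-07). These folds depend on the fit: with total counts the log2 changes were 7.91 and 6.87, and leaving out 1 library gave 8.51 to 8.96 for Il1b and 7.15 to 8.70 for Nlrp3. Gsdmd was at 148.2 to 164.1 CPM, at 2.40 ± 0.12 with adjusted p = 4.26e-10. Nlrp1a, at 17.7 to 24.1 CPM, Nlrp1b, at 6.75 to 13.9 CPM, and Casp4, at 37.2 to 52.8 CPM, were also above every 2-week HSPC library. Pycard (64.0 to 81.7 CPM) and Il18 (4.06 to 6.51 CPM) overlapped the HSPC libraries in CPM. Their log2 changes of 1.22 and 1.496 were smaller with total counts, at 0.38 and 0.66, and Il18 was then not called (adjusted p = 0.056). Going from TMM to total counts moved the median of all genes by -0.81. The neutrophil markers, at 14.03% to 16.08% of counts here and 0.112% to 0.369% in the 2-week HSPCs, moved with these values. Monocyte and macrophage markers did too, at 2821 to 3363 CPM here against 407.2 to 754.6 CPM in those HSPCs. They were at 170.2 to 387.4 CPM in B cells. Erythroid markers were at 2817 to 9314 CPM here against 1895 to 2654 CPM in those HSPCs. No other marker list was higher than in those HSPCs without overlap. The part of these markers in the values was not tested.

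Against B cells, 6 of the 9 genes other than Nlrp1a were higher in the T-labelled libraries and none was lower, where 25.9% of all genes were higher and 27% lower. Nlrp3 rose by 5.13 ± 0.38 on the log2 scale, Il1b by 4.75 ± 0.30 and Nlrp1b by 4.33 ± 0.36, each without overlap. Nlrp1a, not tested here, was at 17.7 to 24.1 CPM against 4.72 and 4.13 CPM in WT B cells and less in mutant ones. Casp4 (1.90), Gsdmd (1.56) and Casp1 (1.32) rose less, and Casp1 overlapped in CPM. Nlrc4 was at 13.5 to 17.4 CPM against 24.9 to 37.8 CPM in B cells and Pycard at 64.0 to 81.7 against 116.0 to 136.5 CPM, so both were lower in CPM without overlap. With TMM their log2 changes were -0.26 (adjusted p = 0.162) and -0.10 (0.455), and with total counts -0.97 (adjusted p = 7.97e-05) and -0.82 (2.11e-05). Il18 was at 0.10 with TMM and -0.62 with total counts, so its sign depended on the scaling. The median of all genes moved by -0.70 between these scalings.

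**Figure D4:**
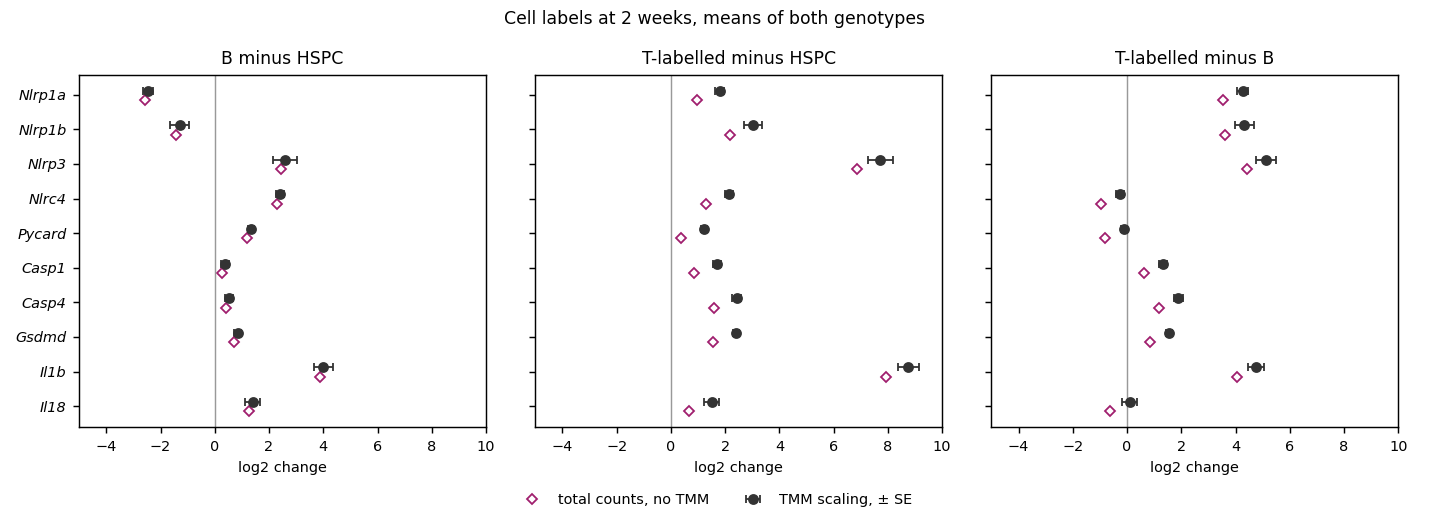
Log2 change of each gene between cell labels at 2 weeks, averaged over genotypes, with TMM scaling (filled, ± SE) and with total counts (open diamonds). The Nlrp1a points in the contrasts with B cells rest on the values it was chosen by and carry no test. Nlrp1b lies below 0 in B cells minus HSPCs, and for T-labelled minus B cells Nlrc4 and Pycard are at -0.26 and -0.10 with TMM and at -0.97 and -0.82 with total counts.

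Members were also read against the neutrophil gene S100a8, as a description. Per 1000 CPM of S100a8, Il1b was at 5.936 to 8.997 CPM in the T-labelled libraries, 4.83 to 9.99 CPM in B cells and 5.46 CPM in WT untreated HSPC replicate 1. Nlrp3 was at 3.83 to 4.38, 2.02 to 4.13 and 2.33 CPM on the same scale. The other 15 HSPC libraries scattered widely, from 0 to 71.3 CPM for Il1b and from 0.148 to 58.4 CPM for Nlrp3 on this scale. These libraries held at most 1.09 CPM of Il1b and 2.09 CPM of Nlrp3, so their ratios come from low levels. The pooled B cell and T-labelled ratios thus overlapped for both genes, while most HSPC libraries showed no common ratio. WT untreated replicate 1 lay below all T-labelled ratios. Within B cells the ratios parted by genotype. For Il1b they were 6.04 and 4.83 in WT against 9.76 and 9.99 in mutants, and for Nlrp3 3.18 and 2.02 against 4.05 and 4.13. The Il1b ratios of mutant B cells lay above, and the Nlrp3 ratios of WT B cells below, all T-labelled ones. Nlrc4 was at 0.578 to 0.841 CPM per 1000 CPM of S100a8 in the T-labelled libraries and 10.3 to 61.6 CPM in B cells, and Gsdmd at 6.11 to 7.28 and 44.4 to 137.0 CPM. The B cell ratios of Nlrc4 and Gsdmd thus lay above all T-labelled ones.

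**Figure D5:**
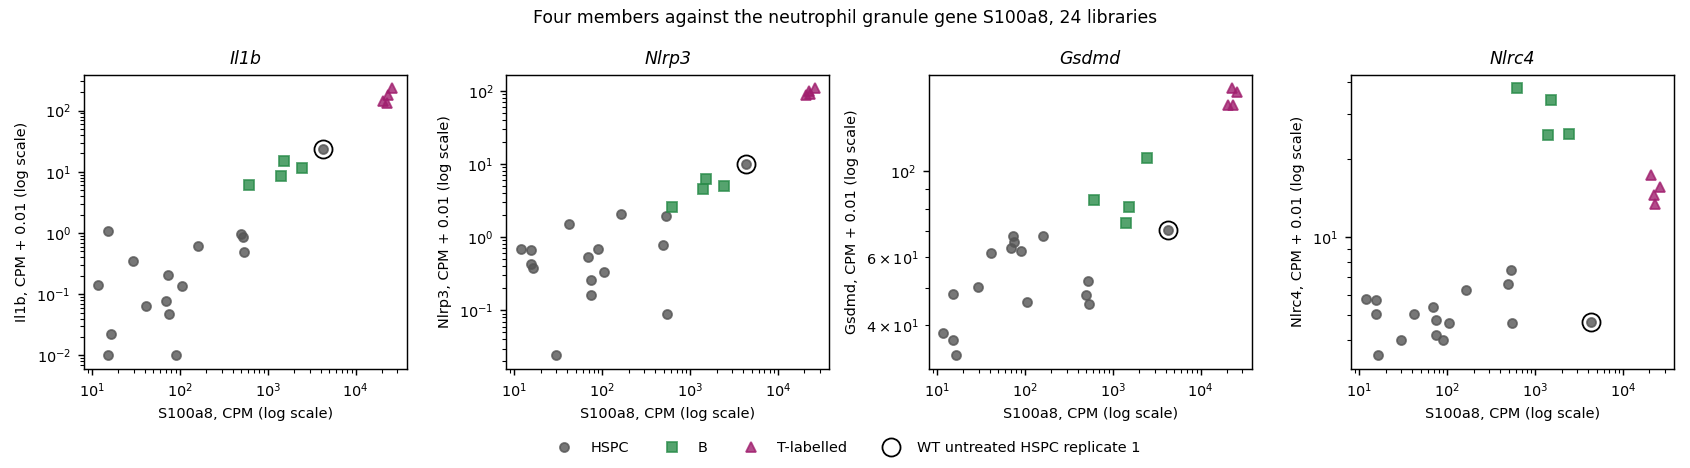
CPM of Il1b, Nlrp3, Gsdmd and Nlrc4 (plus 0.01) against S100a8 in 24 libraries, both axes log, with the WT untreated HSPC library of 4309 CPM S100a8 ringed. For Il1b and Nlrp3 the ratios of B cell and T-labelled libraries to S100a8 overlap. The ringed library, at 5.46 and 2.33 CPM per 1000 CPM of S100a8, lies within the B cell ratios and below the T-labelled ones. The other 15 HSPC libraries, with at most 1.09 and 2.09 CPM of these genes, scatter (0 to 71.3 and 0.148 to 58.4 CPM per 1000 CPM of S100a8). Nlrc4 is highest in B cells, at 24.9 to 37.8 CPM.

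Over the 12 group means of log2(CPM + 1) some of the genes ran closely together. The Pearson correlations were 0.98 for Nlrp3 with Il1b, 0.95 for Nlrc4 with Pycard, 0.94 for Nlrp3 with Gsdmd, 0.91 for Casp1 with Casp4 and 0.90 for Nlrp1a with Nlrp1b. The lowest was -0.67, for Nlrp1a with Pycard. The groups share cell labels and neutrophil content, so these values describe the 12 groups and carry no test. Of 13067 genes compared in this way, Fads6 (0.96), Sntb1 (0.96) and Gm7694 (0.96) were most like Nlrp1a, Dgat1 (0.996), Msr1 (0.99) and Arhgef37 (0.99) most like Nlrp3, Fn1 (0.9967), Fpr1 (0.9955) and Cd300ld (0.995) most like Il1b, and Xrcc4 (0.97), Cdc14b (0.96) and Ighv5-16 (0.96) most like Il18. Ordered by mean CPM, Nlrp1a ran from the T-labelled groups over untreated and doxorubicin HSPCs, 2-week HSPCs and 20-week HSPCs to WT and then mutant B cells. Of its 11 neighbouring group pairs 5 overlapped, against 11 of 11 for Casp1 and 10 for Casp4 and Il18. It was 8 for Nlrp3, Nlrc4 and Pycard, 7 for Nlrp1b and Il1b and 6 for Gsdmd. The pair of WT and mutant B cells, without overlap for Nlrp1a, is the contrast it was chosen for. The same count was not made over all genes, so these numbers do not set Nlrp1a apart.

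The wider pathway was read from 57 other genes: other sensors, priming through Toll-like receptors, regulators of assembly, lysis genes, and cytokines with their receptors and decoys. In edgeR none of the 55 or 56 tested was called between genotypes in any group, after doxorubicin or for the difference between doxorubicin responses. At 2 weeks 8 were higher and 22 lower than in untreated HSPCs, of 56, beside 21.2% higher and 24.9% lower among all genes. The receptor gene Il1r1, which binds interleukin-1, fell from a mean of 112.3 to 30.9 CPM (-1.78 ± 0.10, adjusted p = 4.55e-10). Tlr4, the receptor for bacterial lipopolysaccharide, fell from 33.9 to 6.53 CPM (-2.29) and its partner Ly96 from 8.22 to 2.18 CPM (-1.80). Nlrp10 fell by 1.97 on the log2 scale, while Mefv, which encodes the sensor pyrin, rose from 1.04 to 9.09 CPM (3.52 ± 0.60, adjusted p = 0.000106). At 20 weeks 10 were higher and 6 lower, beside 13.1% and 10.6% of all genes. Il1r1 fell again, to 41.8 CPM (-1.07), as did the decoy receptor Il1r2 (-1.61) and Nlrc3, a negative regulator (-1.20), while Txnip (1.16), a redox regulator that can bind Nlrp3, and Nfkbia (1.02), the NF-kB inhibitor, rose.

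In B cells 20 of the 57 were higher than in 2-week HSPCs and 20 lower, beside 28.3% and 25.5% of all genes. Nfkbia rose from 30.3 to 203.7 CPM (2.88 ± 0.12, adjusted p = 1.79e-10), Il1rn, the receptor antagonist, rose by 3.01 and the alarmin Il33 by 4.11, while Il1r1 fell by 2.96. Naip1, a partner of Nlrc4, had a mean of 1.27 CPM in B cells and 0.0143 CPM in HSPCs, with 0.570 CPM in the T-labelled libraries. In the T-labelled libraries 38 of the 57 were higher than in HSPCs, beside 32.6% of all genes, and 9 were lower. Il1rn was at 146.8 CPM (8.08), Il1r2 at 123.4 CPM (6.14) and Nlrp12 at 121.0 CPM (7.08), and Nlrp6 had no count there against 0.338 CPM in HSPCs. Against B cells 37 were higher and 9 lower, beside 25.9% and 27% of all genes, with Il1rn (5.06), Il1r2 (5.01), Mefv (4.84), Cd14 (4.76) and Gsdme (4.71) the most changed. The neutrophil, monocyte and macrophage, and erythroid marker values given above apply to these T-labelled values too.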

How the data were processed

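Each deposited file lists unnormalized gene counts that the authors obtained with featureCounts 2.0.1 (paired, reverse-stranded, GENCODE M28 exons), per the file headers. FastQC, STAR and Subread, with no versions, and the builds mm39 and mm10 appear in the submitters' processing notes. File coordinates match GRCm39, and how reads were aligned is not given in the sources used here. Symbols came from GENCODE M21 for 52081 of 55414 IDs, which hold 99.85% of the counts. The 24 libraries held 26369992 to 78432483 counts. The extraction protocol names 30000 sorted HSPCs for every library, B and T cell labels included.

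Separate fits were made in edgeR 4.0.16 (robust quasi-likelihood, filterByExpr with a minimum of 10 counts and total of 15, TMM): 16 HSPC libraries with 19522 genes, 8 B and T-labelled libraries with 17484 genes, and 12 libraries from 2 weeks with 19018 genes. Benjamini-Hochberg adjustment covered all genes of a fit, and a call has an adjusted p under 0.05. Of the 14 comparisons, genotype was compared within each cell label and condition, conditions and cell labels over both genotypes, and 8 contrasts of effects were added after seeing the data. CPM is scaled by total counts without TMM, so it can differ in direction from a fitted change, and TPM divides by the gene length in the files. The SE is the log2 change divided by the square root of the quasi-likelihood F. Correlations use log2(CPM + 1). The methods were tested on simulated data.

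Each of the 14 comparisons was recomputed for the 10 genes with DESeq2 1.42.0, with RLE size factors, on unfiltered genes and with the replicate number blocked. It was also refitted on only the groups compared, with immunoglobulin genes left out and with each library dropped in turn. Total counts without TMM were added after seeing the data. The 8 contrasts of effects, the 57 pathway genes, the correlations and the marker sums were not recomputed. The 10 genes, the 57 pathway genes and the marker lists were chosen with earlier results of these data known. Named besides the 10 genes and Srcap are at most 5 called pathway genes with the largest change per comparison, the 3 genes most like each of Nlrp1a, Nlrp3, Il1b and Il18, and cell markers. Nlrp1c-ps and Mis12 were named after their values were seen.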

Additional observations from a re-analysis of the deposited data

How the results depend on the processing

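The counts of members called by edgeR kept within 1.5 times of the reported ones under RLE size factors, total counts, fits of the compared groups alone and without immunoglobulin genes. Without the count filter 1 member was called for genotype in untreated HSPCs, for the mean genotype effect, for doxorubicin and for the difference between doxorubicin responses, each time Il1b, and 1, Nlrp1b, for genotype in B cells. It also ended the Nlrp1a call at 2 weeks and added Nlrp3 and Casp1 at 20 weeks. Over all genes that filter choice gave 467 calls in untreated HSPCs, 618 for the mean, 421 for doxorubicin, 337 for the difference of responses and 590 in B cells. DESeq2 called 1 member for genotype in untreated HSPCs, Il1b, among 152 genes, and 1 in B cells, Nlrp1b, among 337 genes. With the replicate number as a block the B cell comparison called 1 member, Nlrp1b with adjusted p = 0.0127, and 284 genes against 112, and at 20 weeks Casp1 was added (adjusted p = 0.0369). Deviations of equally numbered libraries correlated between genotypes at -0.0429 to 0.0256. No pairing by these numbers was thus seen, though values near 0 cannot show that there is none.

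Leaving out 1 library at a time gave 0 to 1 members for genotype in untreated HSPCs (Il1b without WT replicate 2, the other WT library being the one with 2.44% neutrophil counts), 0 to 1 in B cells and 1 to 6 for 20 weeks against untreated HSPCs. Among single genes 36 values lost and 23 gained a call, 1867 kept their direction and side of the threshold or stayed uncalled, and none reversed while called. Nlrp1b in B cells rests on 20 to 108 counts a library. With 2 libraries a group, a change that was not called is not shown to be absent.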
